A study of Mus musculus with 64 samples.

Results

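The 5 genes described here encode the core of the Fas death receptor pathway: the ligand Fasl, the receptor Fas, the adaptor Fadd, the initiator caspase Casp8 and the caspase-like inhibitor Cflar. They were chosen by name, as the insertion lines that the authors assigned to one of them. These were 141 of 385883 lines, of which 99 named Fas, 22 Cflar and 20 Casp8, while no line named Fasl or Fadd. After the steps described next, 136 of 299625 insertions lay in a member. The choice of Fas rests on its number of insertions in the tumours, so that number, the tumours hit and their excess over tails or over the expected number are given for Fas as a description with no test. Strand, place within the gene and reads were not used for the choice.

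The data are transposon insertion sites from 64 samples. Each has its own code in its label, read here as 1 mouse per sample, which the sources used here do not state. Tumours came from 30 PB and 11 SB mice, and tails from 12 PB and 11 SB mice. In these mice, a transposase expressed throughout the body from the Rosa26 locus, PiggyBac (PB, label IMPB) or Sleeping Beauty (SB, label IMSB), cuts transposons out of an ITP donor array and inserts them elsewhere, PB at TTAA and SB at TA. The tumours were diffuse large B cell lymphomas, and tail served as control tissue. The SB mice came from crosses of Rosa26 SB mice with the lines ITP1-C or ITP2-M, in which both parents carried Blm m3/m3, an allele of the Bloom helicase gene. For the PB mice, the Blm genotype is not given in the sources used here, nor is the age of any mouse. All mice had a mixed C57BL/6, 129Sv and FVB background. Since the tails hold skin and other tissues rather than B cells, transposon target choice in B cells and outgrowth of B cells with an insertion cannot be told apart in the comparison of tumours with tails.

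Fas is a cell surface receptor of the tumour necrosis factor receptor family. When Fasl on a neighbouring cell clusters it, its intracellular death domain recruits Fadd, and Fadd gathers Casp8 into a complex in which the protease activates itself and starts apoptosis. Cflar (c-FLIP) enters the same complex and restrains Casp8. In lymphocytes the pathway removes activated and self-reactive cells, and mice that lack a working Fas accumulate lymphocytes.

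Between 757 and 10800 insertions per sample were kept in PB tumours (median 4283.5), 2035 to 7362 in PB tails, 760 to 8786 in SB tumours and 2537 to 7148 in SB tails. Reads summed over the kept insertions had a median of 104091 in SB tails, the lowest of the groups, and of 136578.5 in PB tumours, the highest, and PB tumour 3 stood apart with 5721832. An insertion counts once per sample, whatever its reads. Reads on an insertion come from PCR without molecular identifiers and are therefore no count of cells. A motif can be held by several samples of a system. This was so for 8.98% of all PB tumour insertions and 1.61% of all SB tumour insertions, and for 75% (51 of 68) and 22.7% (5 of 22) of those in Fas. Values are therefore also given with each motif kept only in the sample with the most reads on it, an alternative chosen after seeing the data. Sample names were written in a joined or a separated form, which may mark a batch, and results are repeated within each form.

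Fas lies on the plus strand of chromosome 19 (GRCm38, chr19:34290659-34327770) and its curated RefSeq transcript has 9 exons with 984 coding bases. The last exon, which encodes the death domain, holds 332 of these bases (33.7%). Most tumour insertions lay in the introns just before it. The motifs below are those that the most tumours held or that carried the most reads, as a reader may want to see the sites at which the receptor gene was entered. Each is printed on the plus strand from 5′ to 3′, with the TTAA or TA motif in capitals and 18 bases on either side.
PB intron 8, chr19:34321825-34321864: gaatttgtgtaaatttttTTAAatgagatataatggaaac
PB intron 8, chr19:34322231-34322270: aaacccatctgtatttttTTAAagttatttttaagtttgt
PB intron 8, chr19:34322599-34322638: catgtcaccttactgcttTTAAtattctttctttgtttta
PB intron 8, chr19:34326223-34326262: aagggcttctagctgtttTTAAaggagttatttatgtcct
PB intron 7, chr19:34319440-34319479: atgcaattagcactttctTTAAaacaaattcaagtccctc
SB intron 8, chr19:34320624-34320661: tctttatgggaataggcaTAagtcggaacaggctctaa
SB intron 8, chr19:34321835-34321872: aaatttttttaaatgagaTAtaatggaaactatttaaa
SB intron 8, chr19:34323117-34323154: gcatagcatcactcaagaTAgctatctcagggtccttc
The exon between both introns, exon 8, is only 25 bases long and is shown in capitals with 25 bases of intron on either side, since it parts the PB tumour insertions of intron 7, all 11 on the minus strand, from those of intron 8, 36 of which were on the plus strand and 1 on the minus strand.
Fas exon 8, chr19:34320536-34320610: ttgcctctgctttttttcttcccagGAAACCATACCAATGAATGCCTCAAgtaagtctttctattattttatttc

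Fas held 68 insertions in 27 of 30 PB tumours, 3 in 2 of 12 PB tails, 22 in 5 of 11 SB tumours and 3 in 3 of 11 SB tails. A PB tumour held 0 to 10 of them with a median of 2, and the mean was 2.27 ± 2.12 (SD, n = 30) against 0.25 ± 0.622 (SD, n = 12) per PB tail. Of the PB tumours, 9 held 1 insertion, 11 held 2, 7 held more and 3 held none, and those 3 had 2347, 3602 and 3787 kept insertions in all. The ranges of tumours and tails overlapped, since 10 of the PB tails held none, PB tail 8 held 1 and PB tail 9 held 2. Among SB tumours, SB tumour 11 alone held 17 insertions, SB tumour 3 held 2, the SB tumours 2, 4 and 5 held 1 each and the other 6 none, giving 2 ± 5.02 (SD, n = 11). Without SB tumour 11, 5 insertions in 4 of 10 SB tumours remained, or 0.5 ± 0.707 per tumour (SD, n = 10). SB tails held 0.273 ± 0.467 (SD, n = 11).

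Per 1000 kept insertions of a sample, Fas held 0.459 ± 0.366 in PB tumours (SD, n = 30) and 0.0578 ± 0.159 in PB tails (SD, n = 12), and 0.293 ± 0.572 in SB tumours and 0.0593 ± 0.105 in SB tails (SD, n = 11 each). The edgeR fit over all genes gave log2 folds of tumours over tails of 2.39 in PB and 2.43 in SB, beside medians over all genes of 0.20 and 0.01. These folds describe the values that led to the choice of Fas. The SB fold rests on SB tumour 11, without which Fas had too few insertions for the fit.

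The expected number of insertions in a gene is the number on its chromosome in the group, multiplied by the gene's share of the chromosome's TTAA or TA motifs. It treats all motifs of a chromosome as equally likely. The paper reports that PB favours genes and open chromatin, and SB much less so. Its model of such preferences called fewer genes than motif numbers alone, in both systems. That model was not run here, and the share of insertion preference in the excess of any gene below was not tested. Fas has 210 TTAA and 2294 TA motifs, which gave 3.04 expected insertions in PB tumours and 0.921 in SB tumours. The observed numbers were 22.4 and 23.9 times as high, and 6.97 times without SB tumour 11. In the tails, where the number of insertions was not used for the choice, it was 3.54 times the expected 0.847 in PB and 2.94 times the expected 1.02 in SB. Neither tail value passed the threshold (one-sided Wald test, Bonferroni-adjusted p = 1 for both, unadjusted p = 0.014 and 0.031). Each rests on 3 insertions. With each motif kept only in the sample with the most reads, 1 remained in PB tails and 0 in SB tails.

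Insertions beside the gene lay on its upstream side. Within 10 kb downstream of Fas, no sample held an insertion, where 0.767 were expected in PB tumours. Within 10 kb upstream, PB tumours held 8 insertions in 7 tumours against 0.723 expected, with 2 to 33 reads and 4 on each strand. PB tails held 1 there and the SB groups none.

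Both name forms showed Fas insertions in most PB tumours. Among joined names, 20 of 22 PB tumours and 0 of 5 PB tails were hit, and among separated names 7 of 8 and 2 of 7. All SB tumours had joined names, and 5 of 11 were hit against 3 of 7 SB tails of that form. By tissue label, Fas was hit in 9 of 9 PB tumours labelled MES MASS, 6 of 6 MES LN, 4 of 5 LN and 4 of 6 SPLEEN, and in the 1 tumour each labelled CERV LN, CERV MASS, LN THROAT and THOR LN. Among SB tumours it was hit in 2 of 3 labelled SPLEEN, 1 of 2 MES LN, 1 of 2 MES MASS and the 1 SI MASS, and not in the 1 each labelled THYMUS, PROX SI and LN SAL GL. No test was run over these labels, which hold few tumours each.

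**Figure D1:**
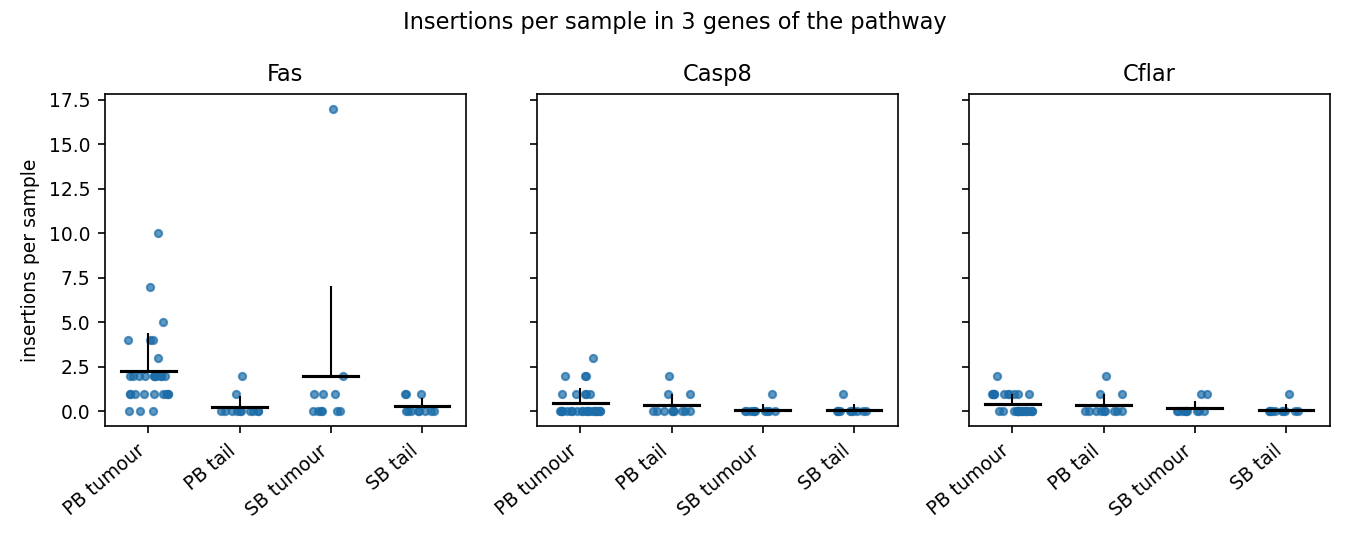
Insertions per sample in Fas, Casp8 and Cflar for the 4 groups. Each point is a sample, the horizontal line is the mean and the vertical line above it is 1 SD (n = 30, 12, 11 and 11). PB tumours reach 10 insertions in Fas and SB tumour 11 reaches 17, while no sample exceeds 3 in Casp8 or 2 in Cflar.

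The strand of Fas insertions leaned to the plus strand, the direction in which Fas is transcribed. Which end of the transposon the deposited strand refers to is not stated in the sources used here, so a plus-strand insertion is one listed as plus. In PB tumours 47 insertions were plus and 21 minus, and the mean share per tumour was 72% ± 30.7 (SD, n = 27; two-sided sign-flip permutation test against 50%, p = 0.0015). Of the tumours hit, 17 lay above 50%, 3 below and the rest at it. The share was 64.7% ± 31 in tumours with joined names, where it no longer passed the threshold (SD, n = 20; permutation test, p = 0.052). It was 92.9% ± 18.9 in those with separated names (SD, n = 7; exact permutation test, p = 0.031). With each motif kept only in the sample with the most reads, it was 71.4% ± 38.7 (SD, n = 23; permutation test, p = 0.022). In SB tumours 15 were plus and 7 minus, with a mean share of 91.8% ± 18.4 (SD, n = 5; exact permutation test, p = 0.062, the smallest that 5 samples allow). All 7 minus-strand insertions belonged to SB tumour 11, and the other 4 SB tumours held plus-strand insertions alone. In the tails, 2 of 3 PB and 3 of 3 SB insertions were plus. PB tumours and PB tails differed by -3.01 percentage points (exact permutation test, p = 1), a comparison with only 2 tails.

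Along the gene, tumour insertions lay towards the 3′ end. Their mean position in PB tumours was 71.2% of the gene's length from its start (SD 17.1, n = 27), against 53.8% for its TTAA motifs (two-sided sign-flip permutation test, p = 8.0e-05), and 22 of 27 tumours lay beyond the motif mean. It was 68.5% among joined names (n = 20; permutation test, p = 0.0032) and 79% among separated names (n = 7; exact permutation test, p = 0.016). With each motif kept only in the sample with the most reads, it was 69.8% (n = 23; permutation test, p = 1.0e-03). The SB tumour mean was 74.2% (SD 11.9, n = 5) against 51.5% for TA motifs, beyond the motif mean in 5 of 5 tumours (exact permutation test, p = 0.062, again the smallest possible). Position was not tested in the few tails hit. The SB tails 1, 5 and 7 lay at 80.8%, 84.1% and 87.5%, and the PB tails 8 and 9 at 94.7% and 49.8%.

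**Figure D2:**
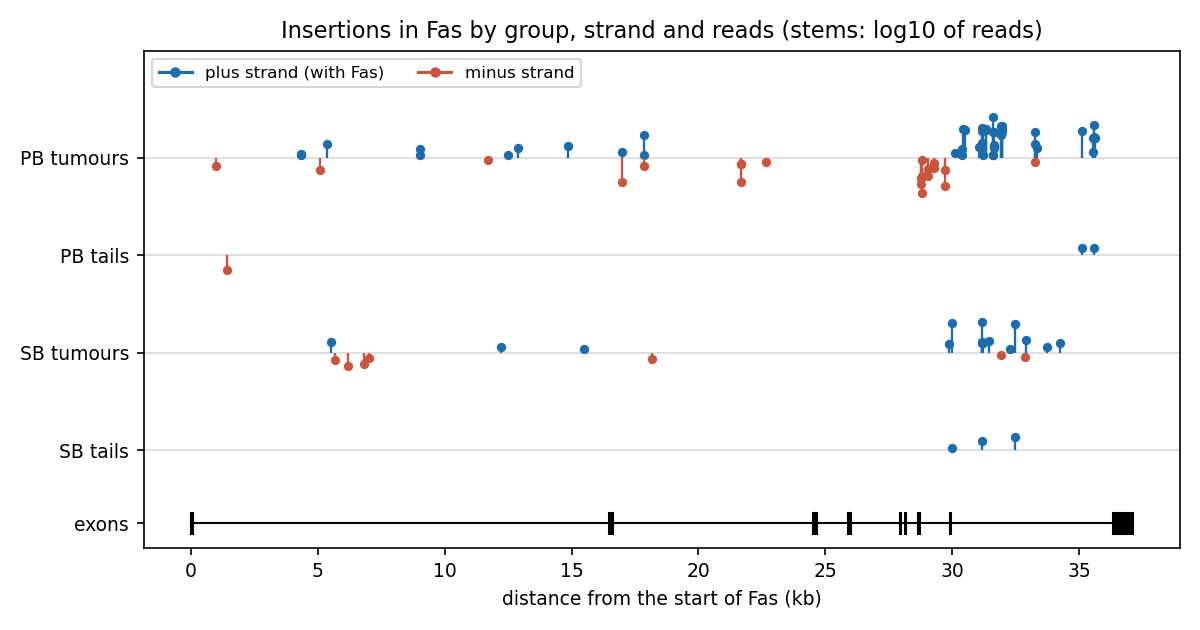
Insertions along Fas by group, with distance from the gene start in kb on the x axis and exons as black boxes. Each stem is 1 insertion in 1 sample, drawn up in blue for the plus strand and down in red for the minus strand, with a length in proportion to the log10 of its reads. Of the 68 PB tumour insertions, 36 form a plus-strand group between exon 8 and exon 9, and 11 on the minus strand lie between exon 7 and exon 8.

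The introns and strands that follow were singled out after their values had been seen, and are described without a test. Intron 8 (chr19:34320586-34326992), which follows 217 of the codons of Fas, holds 17.6% of the gene's TTAA motifs and 19.4% of its TA motifs. In PB tumours it held 36 plus-strand insertions in 24 tumours, on 19 motifs, and 1 minus-strand insertion of 3 reads. In SB tumours it held 11 plus-strand insertions in 4 tumours and 2 minus-strand insertions of 2 and 3 reads, both in SB tumour 11. Intron 7 (chr19:34319390-34320560), which follows 209 codons and holds 6.19% of the TTAA motifs, showed the opposite strand: 11 minus-strand insertions in 8 PB tumours, on 6 motifs, and none on the plus strand. Of the 27 PB tumours hit in Fas, 26 held a plus-strand insertion in intron 8 or a minus-strand insertion in intron 7, and 6 held both. In SB tumours intron 7 held 1 insertion, on the plus strand, with 11 reads.

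The earlier introns held fewer insertions for their share of motifs. Intron 1, with 35.7% of the TTAA motifs, held 8 plus-strand and 3 minus-strand PB tumour insertions of 2 to 45 reads. Intron 2, with 21.4%, held 3 on the plus and 6 on the minus strand, the latter of 3 to 959 reads. Introns 3 to 6 and all exons held no insertion in any group. SB tumours held 3 plus-strand and 4 minus-strand insertions in intron 1 and 1 on the minus strand in intron 2. The tails fell largely into intron 8, with 2 of 3 PB and 3 of 3 SB insertions there, all plus and all on a motif that a tumour also held. The remaining PB tail insertion, of 62 reads, lay in intron 1 on the minus strand.

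**Figure D3:**
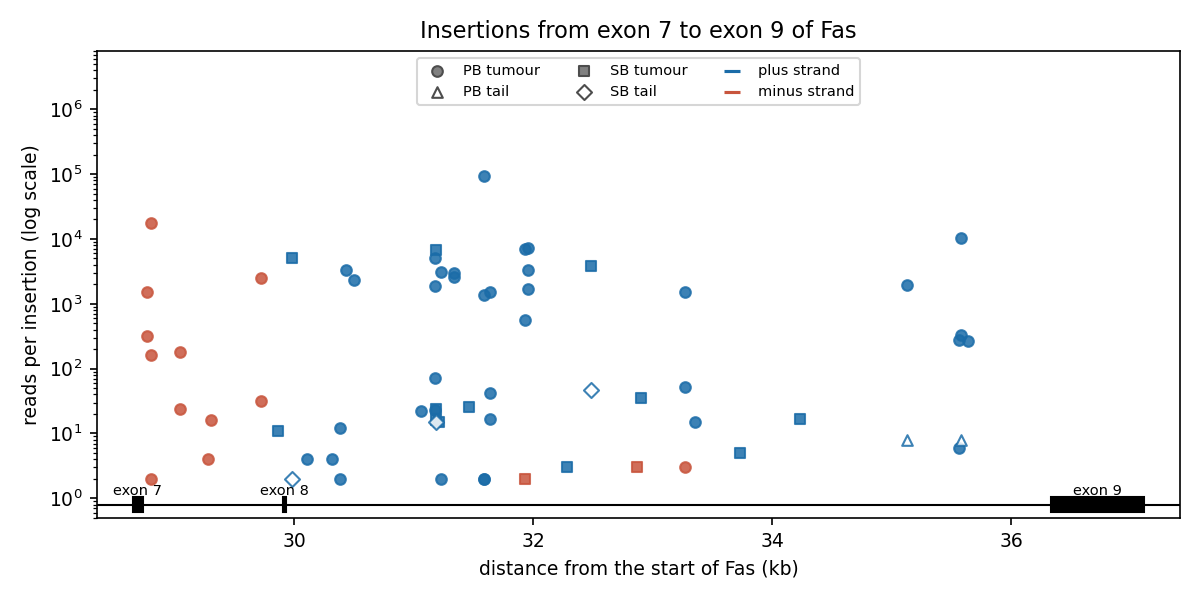
Reads per insertion (log scale) against distance from the start of Fas in kb, from exon 7 to exon 9. Filled symbols are tumours and open symbols tails, blue is the plus strand and red the minus strand. Plus-strand insertions in intron 8 reach 94152 reads in PB and 6784 in SB tumours, minus-strand insertions in intron 7 reach 17907, and tails stay between 2 and 47 reads.

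Several motifs were held by more than 1 sample. The PB motifs starting at 34321843 and 34322249, printed above, were each held by 4 PB tumours, all on the plus strand. On the first the reads ranged from 23 to 5104, and on the second from 2 to 94152, the highest in PB tumour 3, the sample with the most reads in all. The motif at 34322617 was held by 3 PB tumours with 1678 to 7149 reads, and the intron 7 motif at 34319458 by 3 with 2 to 17907 reads on the minus strand. The motif at 34326241 was held by 2 PB tumours, up to 10359 reads, and by PB tail 9 with 8 reads. In SB, the motif at 34321853 was held by 3 tumours, up to 6784 reads, and by SB tail 5 with 15 reads. The SB motif at 34320642 had 5140 reads in SB tumour 3 and 2 in SB tail 1, and that at 34323135 had 3793 in SB tumour 11 and 47 in SB tail 7. Whether the samples with few reads hold the insertion themselves or carry reads of another sample was not tested. With each motif kept only in the sample with the most reads, Fas held 38 insertions in PB tumours, 1 in PB tails, 20 in SB tumours and 0 in SB tails. With insertions of at least 10 reads alone, these numbers were 48, 1, 13 and 2.

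Many of the Fas insertions in tumours were among the most covered of their sample. The summed reads of Fas made up 0.00072% to 14.2% of a sample's reads in the PB tumours hit, with a median of 1.42%, and 0.0103% to 6.68% in the SB tumours hit. They did not exceed 0.0362% in PB tails and 0.0442% in SB tails. An insertion in Fas was among the 10 most covered of the sample in 13 of 30 PB tumours and 3 of 11 SB tumours, and in no tail. Of 176 genes with such an insertion in a PB tumour, 1 had it in more tumours than Fas, and the median gene had it in 1. Of 57 such genes in SB tumours, none had it in more, and 2 genes, Fas among them, had it in 3. Fas held the most covered insertion of all in PB tumour 12, with 7149 reads, and in the SB tumours 3, 4 and 11, with 5140, 6784 and 3793 reads.

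These highly covered insertions lay at the same places. The most covered Fas insertion of a PB tumour lay in intron 8 on the plus strand in 20 of 27 tumours, and in 11 of these it was among the sample's 10 most covered. It lay in intron 7 on the minus strand in 5 tumours, among the 10 most covered in 2, and in intron 1 on the plus strand in 2, with at most 45 reads. By insertions, 18 of 36 plus-strand insertions in intron 8 and 4 of 11 minus-strand insertions in intron 7 were in the top percent of their PB tumour by reads, as were 2 of 6 minus-strand insertions in intron 2 and none in intron 1. In SB tumours, 3 of 11 plus-strand insertions in intron 8 were in the top percent and none elsewhere.

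The read rank is the percentile of an insertion among all kept insertions of its sample, averaged over the sample's Fas insertions, so that 50 is the middle. In PB tumours it was 70.1 ± 29.2 (SD, n = 27), with 22 of 27 tumours above 50 (sign-flip permutation test, two-sided, p = 0.0014). It was 67 among joined names (n = 20; permutation test, p = 0.018) and 79 among separated names (n = 7; exact permutation test, p = 0.047). With each motif kept only in the sample with the most reads, it was 82.7 ± 21.4 (SD, n = 23), a choice that raises it by construction. With the most covered Fas insertion of each tumour left out, the 18 PB tumours with another one had a rank of 50.9 ± 31.2 (SD), a value that this choice lowers by construction, so that 50 is no reference for it. In SB tumours the rank was 67.7 ± 25.2 (SD, n = 5; exact permutation test, p = 0.19), in PB tails 31.2 ± 10.4 (SD, n = 2) and in SB tails 42.3 ± 39.3 (SD, n = 3). Tumours minus tails gave 38.9 in PB (exact permutation test, p = 0.1) and 25.4 in SB (exact permutation test, p = 0.32), neither past the threshold, with 2 and 3 tails. The SB difference rested on single tails, at 5.89 without SB tail 1 and 45.1 without SB tail 7, and the rank in SB tails was 22.6 without SB tail 7.

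**Figure D4:**
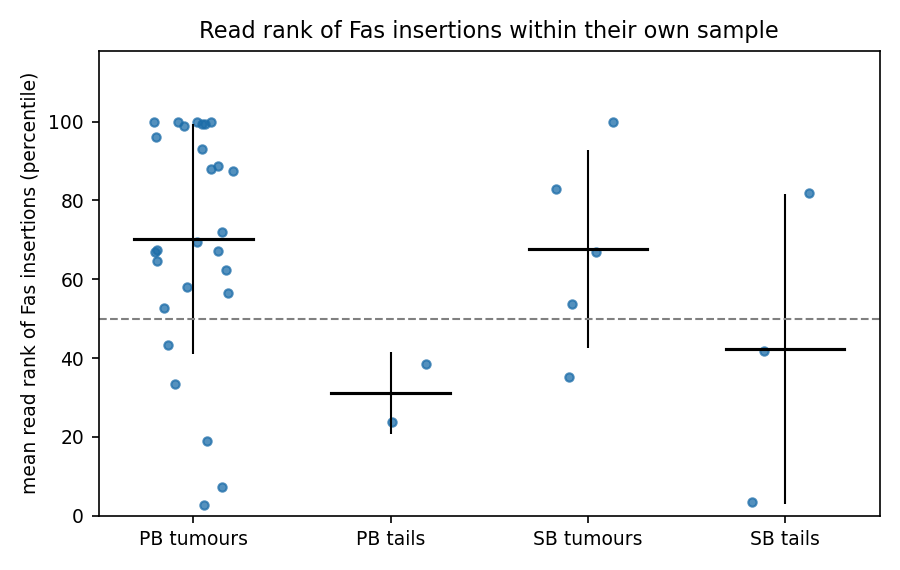
Mean read rank of the Fas insertions of each sample with at least 1, as a percentile of all kept insertions of that sample. Points are samples, horizontal lines means, vertical lines ± 1 SD, and the dashed line marks 50 (n = 27, 2, 5 and 3). PB tumours average 70.1 and range from 2.63 to 100.

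Casp8, the protease that Fas activates, held 14 insertions in 9 PB tumours, 4 in 3 PB tails, and 1 each in an SB tumour and an SB tail. It lies on the plus strand of chromosome 1 (chr1:58795374-58847503). A PB tumour held 0 to 3, with a median of 0. In PB tumours this was 3.61 times the 3.88 insertions expected from 332 TTAA motifs (one-sided Wald test, Bonferroni-adjusted p = 0.0176), in a fit that called 4.85% of all genes. The excess was similar in size in PB tails, at 3.48 times the expected 1.15 (Bonferroni-adjusted p = 1). The call in PB tumours was lost with an exact Poisson test, with insertions of at least 10 reads, with presence counted once per sample, and with each motif kept in 1 sample. Tumours over tails, the log2 fold was 0.08 (edgeR, SE 0.61, 95% interval -1.11 to 1.26, adjusted p = 0.95).

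Cflar, the inhibitor of Casp8, lies next to it on the plus strand (chr1:58711491-58758884) and held 13 insertions in 12 PB tumours, 4 in 3 PB tails, 2 in 2 SB tumours and 1 in an SB tail. A PB tumour held 0 to 2, with a median of 0. In PB tumours this was 4.45 times the 2.92 expected from 250 TTAA motifs (one-sided Wald test, Bonferroni-adjusted p = 8.2e-04). In PB tails it was 4.62 times the expected 0.866 (Bonferroni-adjusted p = 1), an excess that a Benjamini-Hochberg correction called. The call in PB tumours was lost with an exact Poisson test and with each motif kept in 1 sample. Tumours over tails, the log2 fold was 0.01 (edgeR, SE 0.91, 95% interval -1.78 to 1.80, adjusted p = 1). The intervals for Casp8 and Cflar are wide enough to hold a fold of either sign. They are approximate, since each SE was derived from the fold and its test statistic, and give the precision only roughly.

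Insertions in both genes had few reads. In PB tumours those in Casp8 had 2 to 105 reads and those in Cflar 2 to 140, and none in any group was among the 100 most covered of its sample. In Casp8, 5 PB tumour insertions were plus and 9 minus, and 9 of 14 lay in intron 1. In Cflar, 3 were plus and 10 minus, with 5 of 13 in intron 1 and 4 in the last exon, of which 3 lay on the motif starting at 58756840. Of the 9 PB tumours with an insertion in Casp8, 8 also held one in Fas, as did 10 of 12 with one in Cflar, while 27 of all 30 held one in Fas. Of the 3 PB tumours without a Fas insertion, 1 held one in Casp8 and 2 in Cflar.

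**Figure D5:**
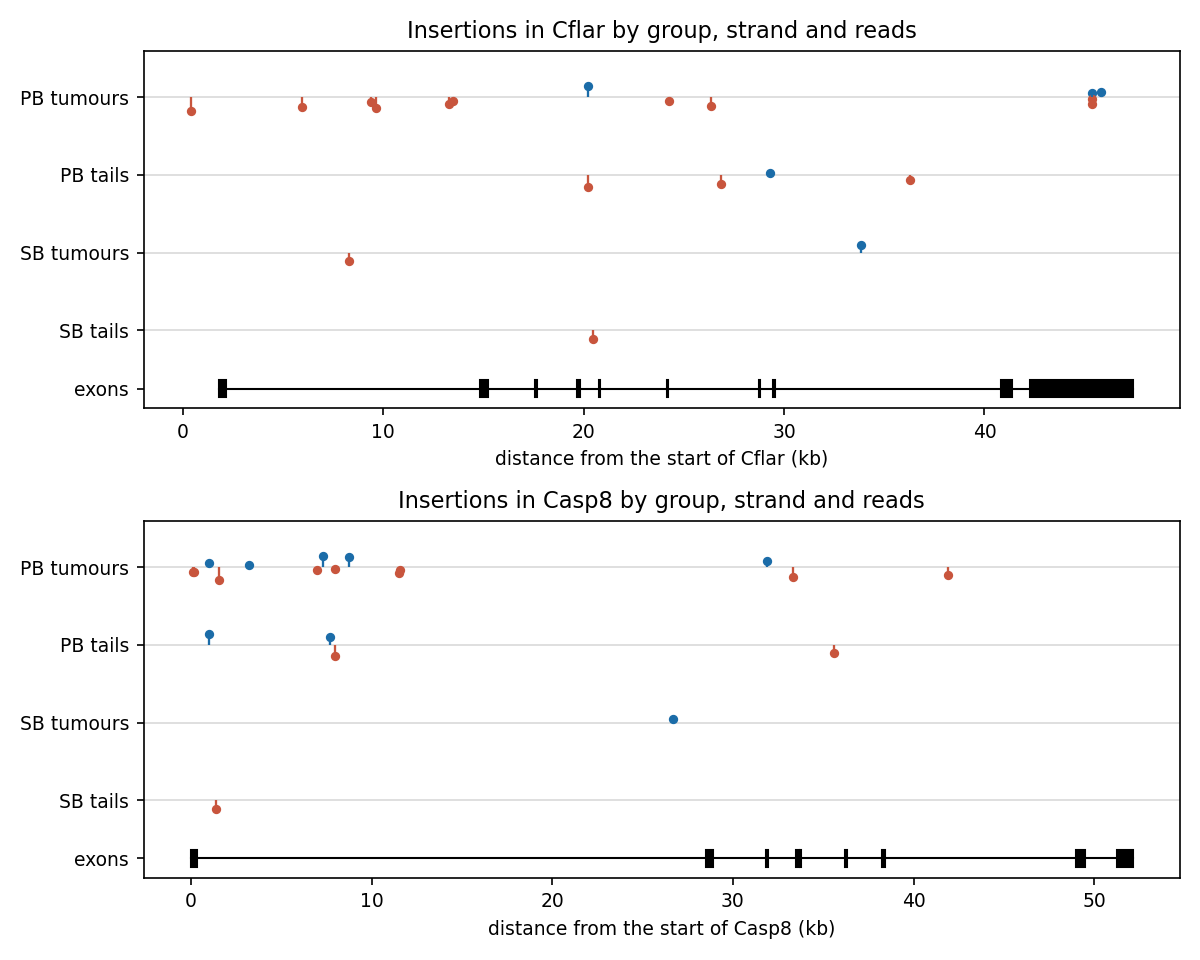
Insertions along Cflar and Casp8 by group, with distance from the gene start in kb on the x axis, exons as black boxes, plus strand up in blue and minus strand down in red. Stem length is in proportion to the log10 of reads, and no insertion exceeds 140 reads.

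Fasl, the ligand (chr1:161780691-161788495), and Fadd, the adaptor (chr7:144578323-144582441), are short genes and held no insertion in any group. Fasl has 38 TTAA and 507 TA motifs, and Fadd 13 and 143. The expected numbers in PB tumours were 0.444 for Fasl and 0.137 for Fadd, and lower in the other groups. A count of 0 allows up to 3 insertions, which is 6.76 times the expected number for Fasl and 22 times for Fadd in PB tumours, for counting error only. A count of 0 thus does not exclude an excess below these multiples.

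Of 34 further genes of cell death by receptors and caspases, 31 lay on the chromosomes kept, and Tnfrsf10b, Ripk3 and Xiap did not. In PB tumours 24 of the 31 held an insertion, or 77.4% beside 59.1% of all 22541 genes. The median of observed over expected was 2.28, beside 0.725 over all genes. All genes include coding and non-coding ones, and the list was not matched to them in motif number or expression, here or for the calls below. The Wald test called 5 of 31 in PB tumours, beside 4.85% of all genes, and none in PB tails, SB tumours or SB tails, beside 1.18%, 0.39% and 0.189%. A call also needed 3 samples hit, which left out Birc3 in SB tumours, with 35.4 times its expected number (Bonferroni-adjusted p = 4.5e-42) from 2 tumours. The 5 were Bid, Birc2, Birc3, Cyld and Faf1, and of the 3 with the most insertions in PB tumours, Faf1 held 55, Birc3 19 and Cyld 17.

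Bid, which carries the Casp8 signal to mitochondria, held 11 insertions in 9 PB tumours and none in any other group. This was 12 times the expected number (one-sided Wald test, Bonferroni-adjusted p = 1.8e-12). All 9 tumours also held a Fas insertion, as did 27 of all 30 PB tumours. Against tails its log2 fold of 1.90 did not pass the threshold (edgeR, SE 0.68, adjusted p = 0.13). Bid entered that fit through its tumour insertions alone. Birc3 and Birc2, neighbouring genes of ubiquitin ligases that restrain death signalling from tumour necrosis factor receptors, held 19 insertions in 15 and 11 in 9 PB tumours, 10.8 and 6.13 times the expected numbers (Bonferroni-adjusted p = 3.3e-21 and 2.0e-05). Each held 2 in PB tails, 3.77 and 3.69 times the expected numbers. The Birc3 log2 fold over tails in PB was 1.13 (edgeR, SE 0.67, adjusted p = 0.38), and that of Birc2 was 0.50 (edgeR, SE 0.64, adjusted p = 0.75). Cyld, a deubiquitinase of the same pathway, stood at 3.43 times the expected number in PB tumours (one-sided Wald test, Bonferroni-adjusted p = 0.00417) and 1.8 times in PB tails. Its log2 fold over PB tails was 0.62 (edgeR, SE 0.64, adjusted p = 0.65). The long gene Faf1, which encodes a Fas-associated protein, stood at 1.86 times (one-sided Wald test, Bonferroni-adjusted p = 0.0495) in PB tumours and 1.7 times in PB tails.

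In the comparison of tumours with tails over all genes, edgeR called 2.02% of 3371 genes higher and 2.2% lower in PB tumours, and 0.708% of 1130 genes higher and 0.177% lower in SB tumours. Of the 7 further genes with enough insertions in PB, none was called, and their median log2 fold was 0.62 beside 0.20 over all genes. Of 3 in SB, Birc3 was higher in tumours, with a log2 fold of 3.88 (edgeR, SE 0.81, adjusted p = 0.00035). Its 16 insertions came from 2 SB tumours: 15 from SB tumour 8, labelled THYMUS, and 1 from SB tumour 3, with none in SB tails and no more than 59 reads. Without SB tumour 8, Birc3 had too few insertions for the fit, and with DESeq2 its log2 fold was 0.25 (adjusted p = 1). SB tumour 8 held no Fas insertion.

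The genes whose insertions per 1000 followed those of Fas most closely over the 64 samples, among 1306 genes with at least 30 insertions, were Rftn1, Slamf6, Cblb, Ikzf3 and Dgkg, with Spearman correlations between 0.49 and 0.53. The samples share the split into tumours and tails and 2 transposon systems. Within the 30 PB tumours alone, the correlations were 0.13, 0.19, 0.44, 0.04 and 0.22 in that order.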

How the data were processed

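QiSeq libraries, made by splinkerette PCR from either transposon end, were sequenced on a MiSeq. The authors deposited, for each insertion, its mm10 position, strand, gene and raw read count, with no line under 2 reads. Aligner, caller and filters are not given in the sources used here. A further per-sample column (1), a scaled coverage, was not used. Positions were moved to the nearest motif within 5 bp (344 lines), and 2234 lines without one were left out, as were the sex chromosomes and the donor chromosome 14. Insertions were counted once per sample and motif. Genes over which fits ran were curated RefSeq genes of GRCm38. The members and the wider list were chosen with earlier results of these data known. The genes named are the 5 members, every gene of the wider list past a threshold, its 3 with the most PB tumour insertions, and the 5 most like Fas. Sequences are from the RefSeq GRCm38 genome.

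Samples were tested with two-sided sign-flip or 2-group permutation tests (100000 resamples, or exact where a group had fewer than 10). Insertions against expected numbers were tested in a Poisson model (Wald test, one-sided, Bonferroni correction), and a called gene had to be hit in 3 samples or more and in 5% of the group. edgeR 4.0.16 (R 4.3.3) used quasi-likelihood tests with Benjamini-Hochberg adjustment, a minimum of 10 insertions and each sample's total as library size, and DESeq2 1.42.0 was an alternative. Other alternatives varied the read minimum, gene assignment, motif merging, name forms, rank scale, test, correction, normalization and samples. The sign-flip, Wald and edgeR tests were tried on simulated data, and the other tests were not. P-values of the permutation tests and edgeR measure the spread between samples, taken as separate mice, while those of the Wald test hold counting error only. The edgeR intervals were derived from the same test statistic, so they also reflect the spread between samples, though only roughly. The limits for Fasl and Fadd cover counting error only.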

Additional observations from a re-analysis of the deposited data

Results flagged for a closer look

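The share of Fas insertions on the plus strand in SB tumour 11 was 58.8%, while the other 4 SB tumours with a Fas insertion stood at 100%. It was the lowest of 5 values and lay far from the nearest. The flagging rule sets a cut-off on the gap, which chance passes in about 1 in 20 groups of normally distributed values. These are not such values: SB tumour 11 held 17 insertions and each of the others 1 or 2.

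Outside the lines assigned to Fas, PB tumours held 0.267 insertions per tumour within 10 kb upstream of the gene, against 0.0833 per PB tail. The difference was not tested.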

How the results depend on the processing

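Few tails, and few SB tumours, held a Fas insertion, which limits those tests. In PB tumours the plus-strand share of Fas with joined names only was 64.7% (permutation test, p = 0.052), and the read rank without the most covered Fas insertion was 50.92, which leaving out the highest value lowers by construction. In PB tumours, no sample left out changed the call for the strand (70.9% to 74.8%), position (70.5% to 73.5%) or read rank (69 to 72.7) of Fas. Within SB tumours and within tails the samples were too few for a call to be made or lost, and the SB difference in read rank, which was not called, ran from 5.89 to 45.1. The log2 folds of Casp8 and Cflar over PB tails, at 0.08 and 0.01, changed sign: Casp8 to -0.07 with at least 10 reads, -0.08 by presence and -0.07 with each motif in 1 sample, Cflar to -0.25 with each motif in 1 sample and -0.12 with name form as a covariate. None of these passed the threshold.

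Over all genes, edgeR called 68 higher and 74 lower in PB tumours. These counts were 131 and 46 with TMM factors, 23 and 47 with no minimum beyond 1 insertion, 43 higher with name form as a covariate, 41 lower with a minimum of 30, 46 lower with at least 10 reads, 17 lower by DESeq2, and 0 and 0 by presence, where 123 and 87 had an unadjusted p under 0.05. In SB, 8 and 2 became 0 and 0 by presence (edgeR, 4 and 3 with an unadjusted p under 0.05), 1 and 1 by DESeq2, and the lower count was 1 with no minimum or a minimum of 30 and 4 with at least 10 reads. The Wald test called 1094 genes in PB tumours, 267 in PB tails, 93 in SB tumours and 45 in SB tails. An exact Poisson test called 632, 81, 33 and 13, a Benjamini-Hochberg correction 2755, 822, 303 and 164, and presence 422, 81, 13 and 9, while at least 10 reads left 469 in PB tumours. The causes were not tested. No paired analysis was possible because the labels number no replicates and no tumour shares its code with a tail.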
